A study of Mus musculus with 8 samples.

Results

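The genes described here were picked by symbol, as genes of axon guidance and neural adhesion proteins, from the protein-coding genes of the expression matrix. The symbol rule took cadherins, protocadherins, neurexins, neuroligins, immunoglobulin-class adhesion proteins, Robo and Slit proteins, netrins and their receptors, semaphorins, plexins, neuropilins, Eph receptors, ephrins and teneurins. It found 78 of the 9140 genes of the matrix, and used no expression value. The cells were hippocampal neural stem and progenitor cells (NPCs) from mouse embryos, kept in culture, and their RNA was read from its 3' ends in single cells caught in droplets. C57BL/6J dams were mated with males that carry Kmt2d+/βgeo, and the dentate gyrus was dissected from Kmt2d+/βgeo and Kmt2d+/+ littermates at embryonic day 18 by the labels. The study's methods give an earlier day. The Kmt2d+/βgeo allele is labelled Mll2Gt(RRt024)Byg, the wild-type libraries carry the strain label C57BL/6J, and Kmt2d encodes a histone methyltransferase. Both genotypes were held undifferentiated with EGF and FGF2 (day 0) and were then collected 2, 4 and 8 days after these factors were taken away. There was 1 library for each of the 2 genotypes and 4 days, 8 in all. The study's methods mention replicate cultures of both genotypes. How many embryos or cultures stand behind a library is not stated in the labels or the study's methods, so genotype and culture cannot be told apart.

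Growing axons read secreted and membrane-bound cues through receptors on the growth cone. Netrins act through Dcc and Unc5 receptors, Slits through Robo receptors, semaphorins through plexins and neuropilins, and ephrins through Eph receptors. Cadherins and protocadherins join cells by binding like molecules on a neighbour, whereas neurexins meet neuroligins across the synapse. Immunoglobulin-class adhesion proteins such as Ncam1, Nrcam, the contactins and the IgLON group (Lsamp, Ntm, Opcml and Negr1) hold axons and glia together. In the hippocampus these families are known for the layering of granule cells and for mossy fibre targeting, and many of them are made by progenitors and astrocytes too.

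To show the regulatory sequence of genes that differed in course, the 250 bases before the start are given below for 4 members, from RefSeq on build GRCm38.p6, 5′ to 3′ on the gene's own strand, with each CpG in capitals. Cadm4 and Nrcam stood higher after growth factor withdrawal, Nrp1 stood lower on day 8, and Pcdh17 was the member that stood apart between the genotype labels on 3 days.
Cadm4 (chr7:24481773-24482022, + strand): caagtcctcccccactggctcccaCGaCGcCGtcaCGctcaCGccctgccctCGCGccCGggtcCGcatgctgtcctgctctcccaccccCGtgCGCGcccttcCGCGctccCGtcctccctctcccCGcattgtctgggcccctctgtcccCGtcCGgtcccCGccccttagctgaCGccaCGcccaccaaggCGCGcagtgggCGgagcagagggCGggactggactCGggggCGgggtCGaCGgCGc
Nrcam (chr12:44328635-44328884, + strand): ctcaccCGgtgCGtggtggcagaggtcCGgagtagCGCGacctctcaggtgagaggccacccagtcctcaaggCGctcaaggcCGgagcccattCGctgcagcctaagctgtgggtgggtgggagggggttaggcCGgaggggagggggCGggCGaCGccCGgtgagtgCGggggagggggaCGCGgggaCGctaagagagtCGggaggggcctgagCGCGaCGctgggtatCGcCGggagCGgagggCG
Nrp1 (chr8:128358823-128359072, + strand): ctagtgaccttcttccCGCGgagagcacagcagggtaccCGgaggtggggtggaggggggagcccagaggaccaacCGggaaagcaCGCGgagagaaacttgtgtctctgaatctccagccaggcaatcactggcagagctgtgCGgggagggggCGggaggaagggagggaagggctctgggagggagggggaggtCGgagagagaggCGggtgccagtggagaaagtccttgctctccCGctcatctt
Pcdh17 (chr14:84443313-84443562, + strand): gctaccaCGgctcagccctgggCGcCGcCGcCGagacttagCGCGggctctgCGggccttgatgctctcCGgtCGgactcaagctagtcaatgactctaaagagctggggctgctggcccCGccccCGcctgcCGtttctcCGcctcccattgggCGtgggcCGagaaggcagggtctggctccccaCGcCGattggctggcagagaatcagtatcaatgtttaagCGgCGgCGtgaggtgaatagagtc
These windows held 30, 25, 11 and 21 CpGs in that order. None of them overlapped an exon on its strand in GENCODE M21, and the Nrp1 window lay inside the annotated gene, in an intron of a transcript that begins further upstream. RefSeq windows of this length were found for 56 of the 78 members, 70 windows in all. Their median CpG count was 13.5, against 6 over 32851 windows of all RefSeq genes. Those windows cover 27025 genes, more than the matrix holds, so they are not matched to the members for expression. The letters GGGCGG, searched on both strands, were present in 34 of the 70 windows (48.6%), against 32.7% of all windows. The letters CAGCTG were present in 4 windows (5.71% against 13.0% overall), and TATAAA on either strand in 3 (4.29% against 12.4%). All 4 windows shown held GGGCGG, and none of them held CAGCTG or TATAAA. The members are also long genes. Their median span was 209.5 kb, against 35.2 kb over the 8752 protein-coding genes of the matrix, and 64 members (82.1%) covered more than 100 kb against 19.4% of protein-coding genes.

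Levels are mean normalised counts per cell, where the values of every cell sum to 8707 over the matrix genes. They come from 3' ends, so they are compared between libraries and not between genes. The libraries held 2534 to 4900 cells, and the median total of unique molecular identifiers (UMIs, 1 per captured RNA molecule) per cell ran from 7926 in the day 8 Kmt2d+/βgeo library, the shallowest, to 23219. On the matrix genes alone, which the levels and the thinning below use, the medians ran from 3972 in the day 8 Kmt2d+/βgeo library to 11229.5 in the day 0 one. Of 30305 distinct cell barcodes, 103 occurred in more than 1 library, at most 10 for any pair. Kmt2d itself was at 0.157 to 0.295 and was not lower in the libraries labelled Kmt2d+/βgeo on days 0, 4 and 8, and whether 3' tags can see this allele is not given. The 6 of 9 listed progenitor markers that are in the matrix had a summed level of 70.1 to 143. Most of it in each library was Vim (30.3 to 86.6) and Fabp7 (15.0 to 43.5), whereas Pax6 was at 0.202 to 0.432. The 5 astrocyte markers in the matrix summed to 16.2 and 8.20 on day 0 (Kmt2d+/βgeo and wild type), to 214 and 158 on day 2, to 252 and 233 on day 4, and to 101 and 238 on day 8. Most of that sum on day 0, and nearly all of it from day 2, was Apoe, the main lipid carrier of the brain. Apoe was at 14.1 and 5.88, 209.7 and 149.8, 244 and 224, and 94.7 and 230.05 on the same days. The other 4 did not all follow it, since on day 2 Slc1a2 (2.19 and 3.95), Aldh1l1 (1.25 and 2.00), Gja1 (0.323 and 0.774) and S100b (0.867 and 1.63) were lower under the Kmt2d+/βgeo label, and on day 8 Slc1a2 was higher (2.08 and 1.53). The 3 neuronal markers in the matrix, Map2, Prox1 and Rbfox3, summed to 3.07 to 4.46, of which Map2 gave 2.85 to 4.00. Rbfox3, a marker of mature neurons, was at 0.00536, 0.0356, 0.170 and 0.113 on days 0, 2, 4 and 8 in Kmt2d+/βgeo and at 0.0174, 0.0501, 0.176 and 0.0472 in wild type. Of 7 listed genes of the oligodendrocyte lineage only Olig2 is in the matrix, and it went from 5.53 and 8.09 on day 0 to 1.48 and 0.911 on day 8. Markers of microglia, vessels and meninges were not analysed here. The 5 astrocyte markers, Rbfox3 and Olig2 were each past 2-fold with day under at least 1 label. So were 5 of the 6 progenitor markers, all but Pax6. Of these, Hopx (log2 ratio of day 8 over day 0 of 3.82 in Kmt2d+/βgeo and 3.01 in wild type) and Sox9 (2.15 and 1.35) were higher on day 8 under both labels, Vim was higher on day 8 in wild type (1.52) and on day 2 in Kmt2d+/βgeo (1.21), Slc1a3 was higher on day 2 in wild type (1.27), and Fabp7 was lower on day 8 in Kmt2d+/βgeo (levels of 34.6 on day 0 and 15.02 on day 8). Top2a, made in dividing cells, was lower on every later day than on day 0, with log2 ratios from -5.99 to -4.54. Between the genotype labels, the markers past 2-fold were Apoe on day 0 (log2 ratio 1.26), Gja1 on day 2 (-1.26), and Apoe (-1.28), Rbfox3 (1.26) and Hopx, a radial glial marker at 6.16 and 1.82 (1.76), on day 8. Top2a was past it too on day 8, at 0.0550 and 0.122 (-1.15). The part of these shifts in the members' results was not tested. In library means, fewer cells that express a gene and less RNA per cell cannot be told apart.

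The day 4 libraries stood apart from the other pairs. The SD of the members' log2 ratios between genotype labels was 0.105 on day 4, against 0.526 on day 0, 0.465 on day 2 and 0.690 on day 8. Over all 7459 genes compared on day 4, 0 differed by 2-fold. The 15 members that parted the labels by 2-fold on another day had day 4 ratios between -0.13 and 0.34. For 13 of these 15 the library labelled Kmt2d+/βgeo lay further than the wild-type one from the mean log2 level of its own days 2 and 8, and for the other 2 the wild-type library did. The 15 were picked by their gaps on days 0, 2 and 8, and the distance uses days 2 and 8 again. The same count over all genes was not made, so this count is a description only and does not tell which library is unusual. Ncam1, which was not among these 15, was at 2.22 on day 0 and 2.19 on day 4 under the Kmt2d+/βgeo label. In wild type it was at 1.23 and 1.96. The wild-type level of Ncam1 was already higher on day 2 than on day 0, and the labels were also near each other on day 8 (1.94 and 1.82). The nearness of its levels was thus not particular to day 4, and its distance from days 2 and 8 was not measured. The labels of the day 4 pair are read with caution. Why this pair is so alike was not tested, and whether either library departs from its label cannot be told. Counts over the later days and of the day of the highest level are also given without day 4.

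With 1 library per genotype and day, no difference within a day or between a pair of days has a replicate check, and no test was run. A member was compared if at least 1 of the pair of libraries had a mean of 0.1 or more, and counted as higher or lower where the ratio of the means was at least 2-fold, an absolute log2 ratio of 1. Of the 78 members, 65 reached 0.1 in at least 1 library and 61 averaged 0.1 over the 8 libraries. The other 13 stayed under 0.1 throughout, among them the netrin receptors Dcc and Unc5c, the ephrin Efnb2, and Dscam. A member that reaches 0.1 only in the library where it is high enters a comparison already leaning one way, so counts are read beside the same count over all genes.

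**Figure D1:**
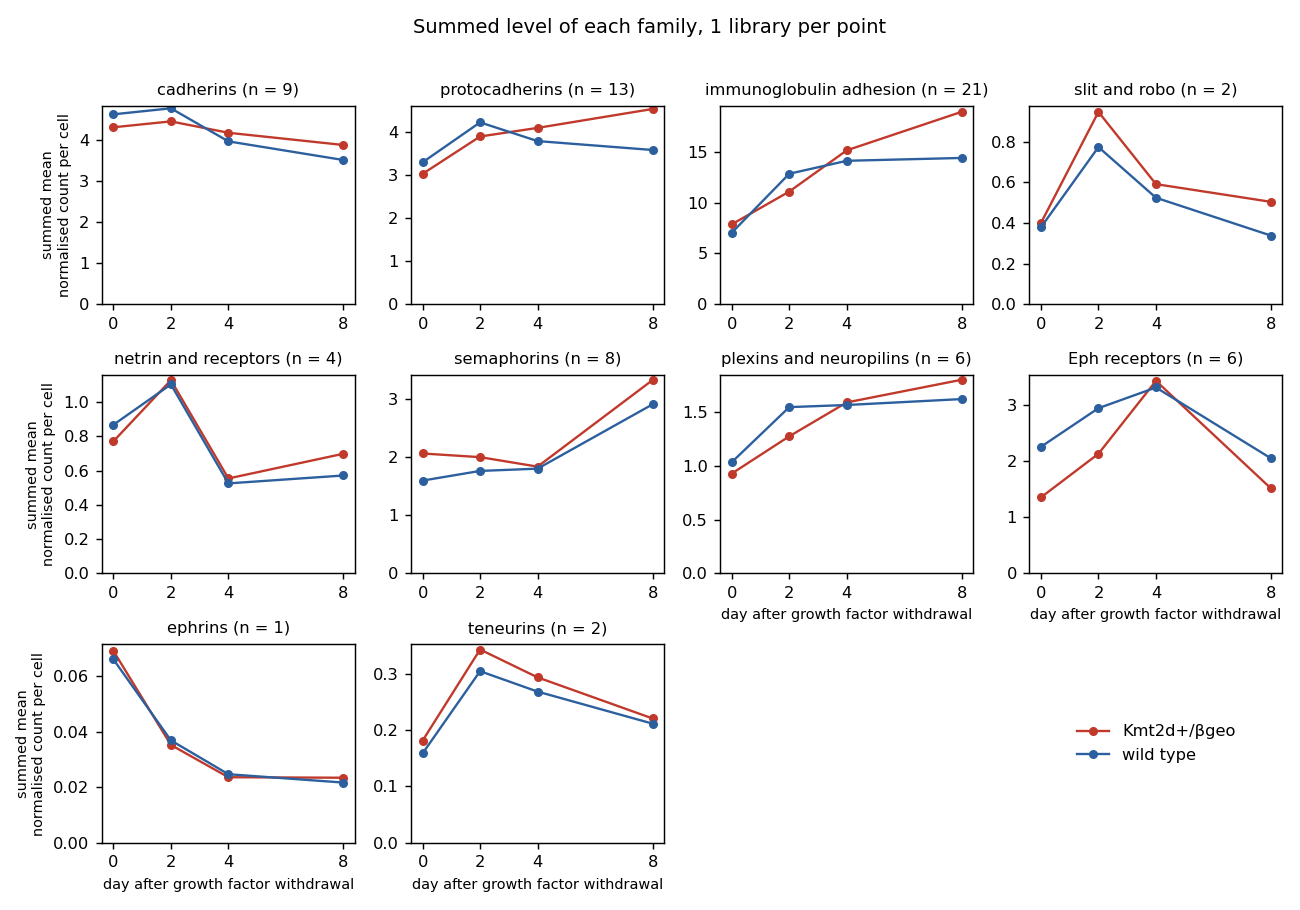
Summed mean normalised count per cell of 10 families by day after growth factor withdrawal, with 1 point per library, the Kmt2d+/βgeo label in red and the wild-type label in blue. n is the number of members, and Unc50 and the synaptic adhesion genes are left out. Immunoglobulin-class adhesion genes stood higher on every later day than on day 0, whereas the Robo genes were highest on day 2.

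The summed level of the 78 members was 26.3 in both day 0 libraries. In the Kmt2d+/βgeo libraries it was 36.6, 44.3 and 47.0 on days 2, 4 and 8, and in the wild-type libraries 39.9, 41.6 and 40.0. Their share of the normalised counts of the matrix genes was thus higher after withdrawal under both labels, 0.302% on day 0 and 0.540% and 0.459% on day 8. A share of all RNA was not measured. Immunoglobulin-class adhesion genes went from 7.85 to 18.9 in Kmt2d+/βgeo and from 7.03 to 14.4 in wild type between days 0 and 8. The cadherins summed to 4.31 on day 0 and 3.88 on day 8 in Kmt2d+/βgeo, and to 4.63 and 3.51 in wild type. Within that sum, Cdh4 alone was at 1.91 and 0.683 and at 2.06 and 0.639. On day 8, 3 cadherins of 8 compared were higher and 1 lower in Kmt2d+/βgeo (19% and 13.9% of all genes were), and 3 of 9 were higher and 2 lower in wild type (16.3% and 10.9%).

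**Figure D2:**
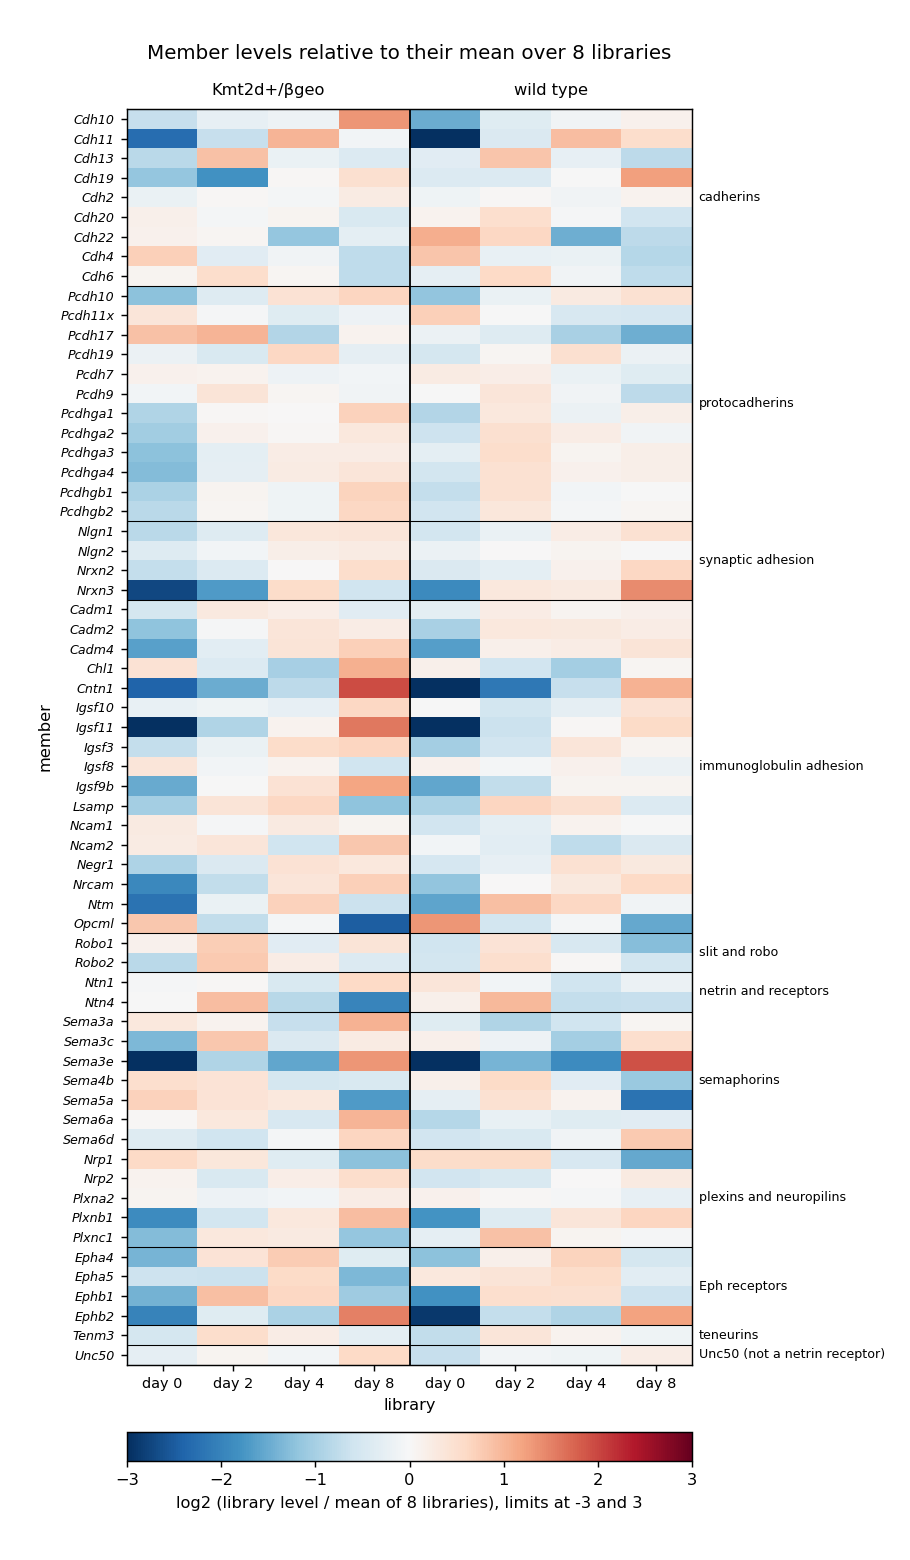
Level of 64 of the members that reached a mean of 0.1 in any library, as log2 of each library over the member's mean of 8 libraries, red for above and blue for below, grouped by family. Cntn1, Igsf11, Sema3e and Ephb2 pass from blue on day 0 to red on day 8 under both labels, and Opcml, Cdh4 and Nrp1 pass from red to blue.

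More members stood higher than lower after withdrawal. On day 2, 21 of 61 members compared were higher than on day 0 in Kmt2d+/βgeo (10.7% of all genes were) and 2 were lower (6.74% of all genes). In wild type 22 of 58 were higher (8.08%) and 2 lower (5.56%). On day 4 the counts were 24 higher (14.8%) and 3 lower (6.61%) of 60 under the Kmt2d+/βgeo label, and 17 higher (11.9%) and 6 lower (6.6%) of 61 in wild type. On day 8 they were 27 higher (19%) and 5 lower (13.9%) of 62 in Kmt2d+/βgeo, and 22 higher (16.3%) and 8 lower (10.9%) of 65 in wild type. After thinning of each cell to 3000 UMIs the day 8 counts were 20 higher and 10 lower in Kmt2d+/βgeo, and 19 and 8 in wild type. All genes were not counted under thinning, so whether they changed likewise is not known. The members' median log2 ratio on day 8 was 0.68 in Kmt2d+/βgeo and 0.52 in wild type, against 0.11 and 0.04 over all genes. Both genotypes were past 2-fold upward for 18 of 57 members compared in both on day 2 (6.52% of all genes) and 15 of 60 on day 4 (10.2%), and downward for 2 (4.44%) and 1 (4.67%). On day 8 they were past 2-fold upward for 20 of the 62 members compared in both (13.2% of all genes) and downward for 4 (8.02%). The comparisons of 1 genotype share its day 0 library.

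On all 3 later days and under both labels, 8 members were higher (3.87% of all genes), among them Cadm2, Cadm4, Cdh11, Igsf11, Nrcam, Ntm and Plxnb1. The same 8 were found without day 4 (4.25%). No member was lower on all 3 days (2.37% of all genes), and without day 4 there were 2, Cdh4 and Opcml (2.87%).

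**Figure D3:**
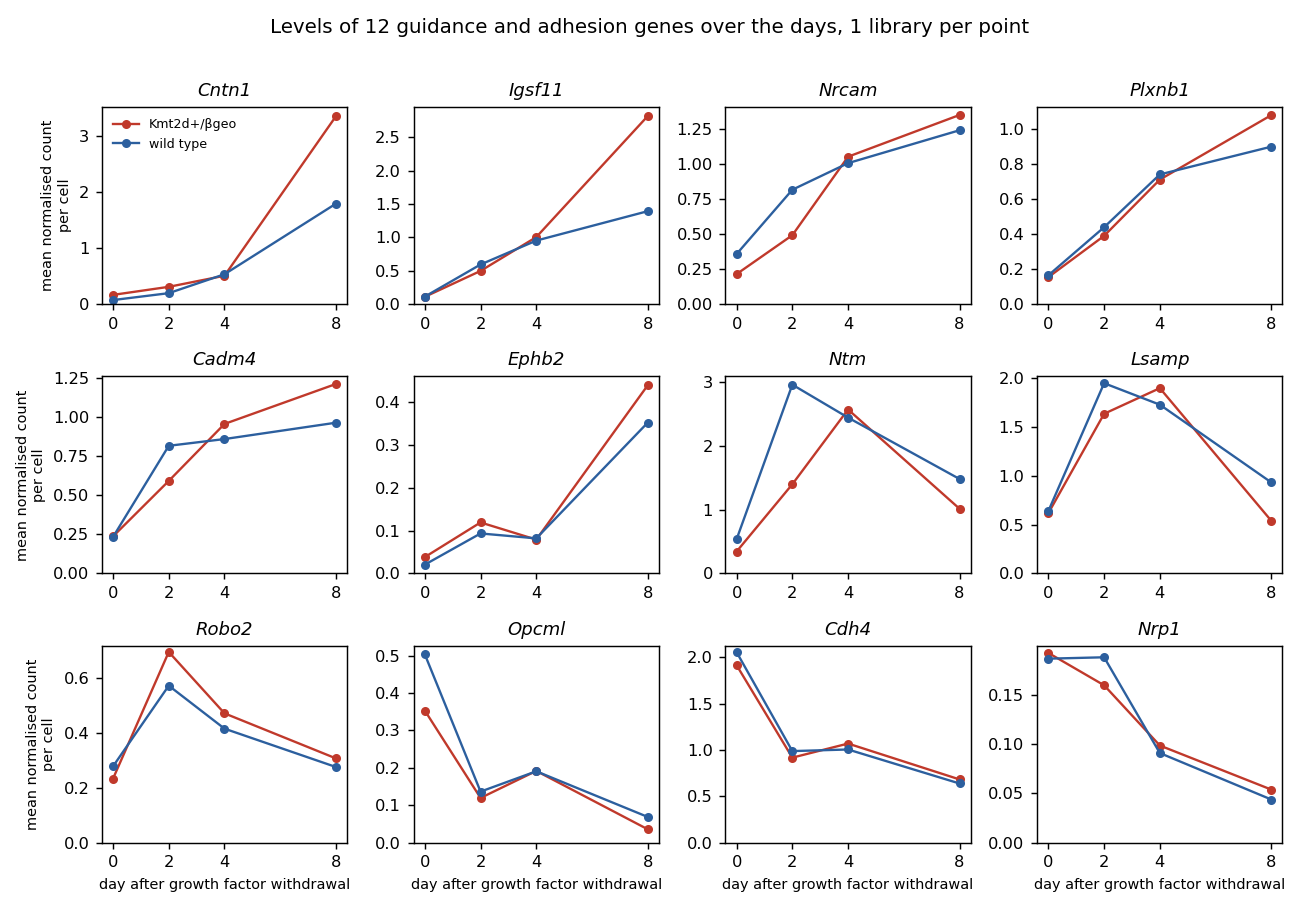
Mean normalised count per cell of 12 members by day after growth factor withdrawal, with 1 point per library, Kmt2d+/βgeo in red and wild type in blue. Cntn1 went from 0.165 and 0.0720 on day 0 to 3.35 and 1.79 on day 8, Lsamp and Robo2 peaked on day 2 or 4, and Opcml went from 0.353 and 0.503 to 0.0358 and 0.0688.

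Among immunoglobulin-class genes, 9 of 17 compared were higher on day 8 in Kmt2d+/βgeo (19% of all genes were) and 8 of 17 in wild type (16.3%), and Opcml alone was lower in each (13.9% and 10.9% of all genes). Cntn1, a contactin tethered to the membrane by a lipid anchor, was at 0.165, 0.308, 0.506 and 3.35 on days 0, 2, 4 and 8 in Kmt2d+/βgeo and at 0.0720, 0.195, 0.533 and 1.79 in wild type. Most of its increase thus fell between days 4 and 8, and its log2 ratios of day 8 over day 0 were 4.35 and 4.64. Igsf11, a homophilic adhesion protein found at synapses, was at 0.109, 0.497, 1.00 and 2.82 in Kmt2d+/βgeo and at 0.112, 0.593, 0.951 and 1.39 in wild type. Its level was higher at each later day than at the one before it under both labels. Nrcam, of the L1 family of axonal adhesion proteins, was at 0.214, 0.492, 1.05 and 1.35 in Kmt2d+/βgeo and at 0.357, 0.817, 1.01 and 1.24 in wild type. Cadm4, one of the nectin-like adhesion proteins, was at 0.237, 0.592, 0.958 and 1.21 and at 0.234, 0.818, 0.861 and 0.965. Igsf9b, known from inhibitory synapses, was at 0.266, 0.752, 1.01 and 1.70 and at 0.256, 0.456, 0.800 and 0.795. Both of these climbed throughout in Kmt2d+/βgeo, whereas in wild type Cadm4 made most of its gain by day 2 and Igsf9b was level from day 4.

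The IgLON genes did not share a course. Ntm was at 0.343, 1.40, 2.57 and 1.01 on days 0, 2, 4 and 8 in Kmt2d+/βgeo and at 0.536, 2.96, 2.44 and 1.48 in wild type. Lsamp was at 0.618, 1.64, 1.90 and 0.540 in Kmt2d+/βgeo and at 0.641, 1.95, 1.73 and 0.933 in wild type. Both genes were thus highest on day 2 or 4, and Lsamp was within 2-fold of its day 0 level on day 8. Opcml was at 0.353, 0.119, 0.192 and 0.0358 in Kmt2d+/βgeo and at 0.503, 0.136, 0.191 and 0.0688 in wild type, with log2 ratios of day 8 over day 0 of -3.30 and -2.87. Its day 8 levels rested on 47 UMIs (exact 95% Poisson interval 34.5 to 62.5) and 176 UMIs (151 to 204), and intervals of this kind cover counting error only. Negr1 was at 0.197 on day 0 and 0.469 on day 8 in Kmt2d+/βgeo, and at 0.266 and 0.462 in wild type, past 2-fold in the first alone. Opcml and Ntm, which both lie on chromosome 9, went in opposite directions here. Ncam1, the neural cell adhesion molecule, stayed between 1.23 and 2.22 in all 8 libraries.

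Cadherins split between higher and lower. Cdh11, a type II cadherin, was at 0.0425, 0.127, 0.418 and 0.195 in Kmt2d+/βgeo and at 0.0246, 0.153, 0.395 and 0.297 in wild type, highest on day 4. Cdh4 (R-cadherin) was at 1.91, 0.918, 1.07 and 0.683 and at 2.06, 0.988, 1.01 and 0.639, so its level was about halved by day 2 and lowest on day 8. Cdh2 (N-cadherin), the main cadherin of neural progenitors, was at 1.08 to 1.46 in the 8 libraries and was past 2-fold in no comparison. Cdh22 was lower on day 8 in wild type (0.187 on day 0 and 0.0513 on day 8), whereas its Kmt2d+/βgeo levels of 0.0964 and 0.0722 were under the minimum for comparison. Among protocadherins, Pcdh10 was at 0.408, 0.727, 1.29 and 1.49 in Kmt2d+/βgeo and at 0.421, 0.834, 1.16 and 1.32 in wild type, a steady climb in both. Pcdh9 was at 0.656 on day 0 and 0.645 on day 8 in Kmt2d+/βgeo, and at 0.692 and 0.399 in wild type.

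The 6 gamma protocadherins of the matrix overlap one another and share their 3' exons. In them 10.2% to 10.7% of nonzero values were whole UMIs, against a median of 93.2% for the other members, so reads had been split among the entries and the 6 are in effect 1 signal. Their sum was 0.429, 0.860, 0.929 and 1.23 in Kmt2d+/βgeo and 0.591, 1.20, 0.912 and 0.941 in wild type. With these 6 as 1 feature, 22 of 57 members compared were higher on day 8 in Kmt2d+/βgeo and 21 of 60 in wild type. Over all genes, with the 6 entries apart, the shares were 19% and 16.3%. Shares of whole UMIs were also low for Sema6a (30.6%), Chl1 (35.7%), Cadm1 (38.3%) and Nrxn2 (42.8%). Among other named members they were 51.6% for Ncam1, 53.4% for Epha5 and 56.3% for Opcml. None of these genes overlaps another gene of the matrix. Why their shares were low was not tested, and their levels are uncertain.

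Of the synaptic adhesion genes, 3 of 4 compared were higher on day 8 in Kmt2d+/βgeo (19% of all genes) and 4 of 5 in wild type (16.3%), and none was lower (13.9% and 10.9%). With so few genes these counts are a description only. Nrxn2, a presynaptic partner of neuroligins, was at 0.506, 0.632, 0.849 and 1.20 and at 0.619, 0.680, 0.907 and 1.29, highest on day 8. Nlgn1, a neuroligin of excitatory synapses, was at 0.350, 0.463, 0.775 and 0.790 and at 0.415, 0.534, 0.707 and 0.839. Nrxn3 was past 2-fold upward on day 8 in wild type, whereas its Kmt2d+/βgeo levels of 0.0101 on day 0 and 0.0440 on day 8 were under the minimum and were not compared.

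Guidance ligands differed in course. Netrins: Ntn1, the cue that draws commissural axons, was at 0.318, 0.331, 0.236 and 0.491 in Kmt2d+/βgeo and at 0.419, 0.307, 0.215 and 0.286 in wild type, past 2-fold on no day. Ntn4, which binds laminin, was at 0.362, 0.692, 0.205 and 0.0922 in Kmt2d+/βgeo and at 0.405, 0.724, 0.224 and 0.226 in wild type. It was thus highest on day 2 in both and past 2-fold downward on day 8 in Kmt2d+/βgeo (log2 ratio -1.97, against -0.84 in wild type). Sema3e, a secreted semaphorin, was at 0.00839, 0.0376, 0.0239 and 0.176 in Kmt2d+/βgeo and at 0.00725, 0.0268, 0.0190 and 0.262 in wild type. It was barely seen before day 8, when it rested on 241 UMIs (211.5 to 273.4) and 694 UMIs (643.3 to 747.6). The transmembrane semaphorin Sema6d was at 0.833, 0.721, 1.05 and 1.72 and at 0.740, 0.803, 1.02 and 1.88, past 2-fold on day 8 in both. Sema5a, another transmembrane semaphorin, was at 0.202, 0.165, 0.154 and 0.0385 and at 0.104, 0.172, 0.135 and 0.0266, lowest on day 8 in both. The ephrin Efnb2 was at 0.0691 and 0.0661 on day 0 and at 0.0234 and 0.0217 on day 8, under the minimum for comparison.

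Guidance receptors likewise went both ways. Plxnb1, a receptor of class 4 semaphorins, was at 0.154, 0.389, 0.709 and 1.08 in Kmt2d+/βgeo and at 0.164, 0.438, 0.739 and 0.897 in wild type. Nrp1, the co-receptor of class 3 semaphorins, was at 0.192, 0.159, 0.0984 and 0.0538 and at 0.186, 0.188, 0.0908 and 0.0437. The former was past 2-fold upward on each later day, and the latter downward on day 4 in wild type and on day 8 under both labels. Plxna2, a signalling partner of neuropilins, was at 0.271 to 0.374 in all 8 libraries and past 2-fold in no comparison. Robo2, a Slit receptor, was at 0.233, 0.694, 0.471 and 0.307 and at 0.278, 0.571, 0.415 and 0.275, highest on day 2 and near its start by day 8.

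Eph receptors, which read ephrins on touching cells, also divided by time. Epha4, which binds ephrins of both classes, was at 0.109, 0.377, 0.484 and 0.222 in Kmt2d+/βgeo and at 0.122, 0.318, 0.449 and 0.197 in wild type, highest on day 4. Ephb1 was at 0.101, 0.508, 0.419 and 0.130 and at 0.0766, 0.383, 0.382 and 0.176, highest on days 2 and 4. Ephb2 was at 0.0380, 0.119, 0.0788 and 0.439 and at 0.0204, 0.0931, 0.0817 and 0.352, and so was highest on day 8, with log2 ratios of 3.53 and 4.11 over day 0. Tenm3, a teneurin known from hippocampal wiring, was at 0.142, 0.292, 0.239 and 0.166 and at 0.123, 0.263, 0.220 and 0.188. It was past 2-fold on day 2 in both genotypes (1.04 and 1.10) and not on day 8.

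Of the 61 members with a mean of at least 0.1 over the libraries, 30 (49.2%) were highest on day 8 in Kmt2d+/βgeo, against 31.1% of all genes. In wild type 17 (27.9%) were, against 30.5% of all genes, and 24 (39.3%) were highest on day 2, against 18.4%. Without day 4 the counts were 35 (57.4%, against 41.5% of all genes) for day 8 in Kmt2d+/βgeo, and 22 (36.1%, against 40.0%) for day 8 and 29 (47.5%, against 23.8%) for day 2 in wild type. The gamma protocadherins account for 5 of the 30 and 6 of the 24, and are in effect 1 signal. Whether the genotypes differ in the day of the highest level was not tested.

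**Figure D4:**
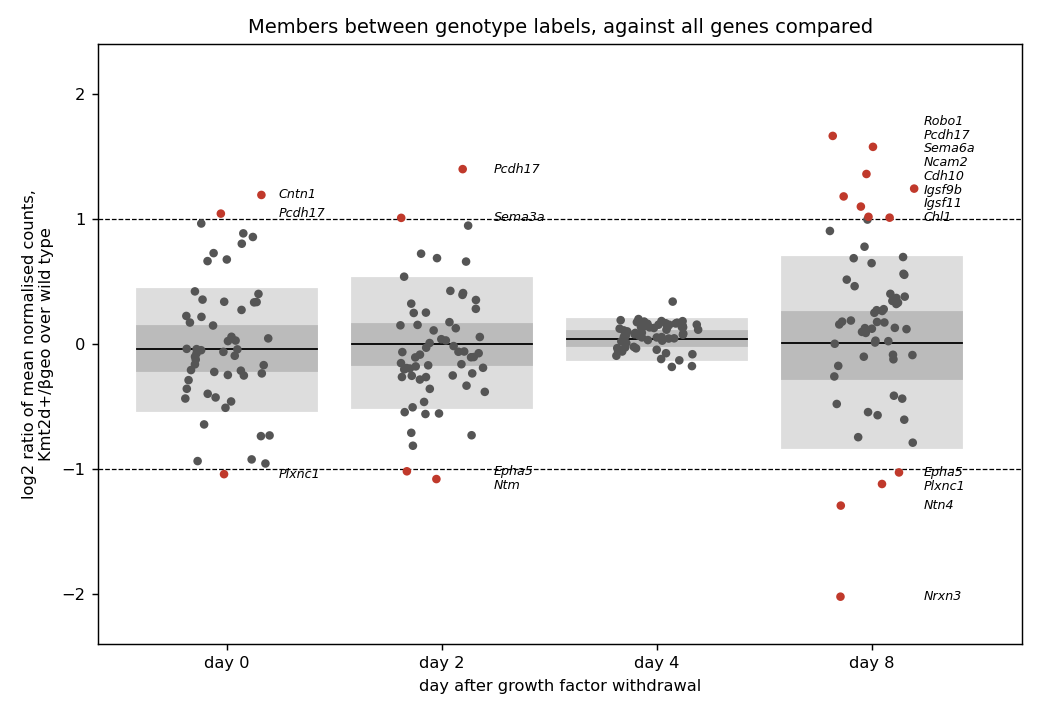
Log2 ratio of the mean levels under the 2 labels (positive where Kmt2d+/βgeo is higher) for each member compared on each day (points, red and named where past 2-fold), over the middle 50% (dark grey) and 90% (light grey) of all genes compared, with the all-gene median as a black line and 2-fold as dashed lines. Day 4 is narrow, and day 8 has 8 members above and 4 below 2-fold.

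Between the genotype labels, the members were mostly within 2-fold. On day 0, 2 of 55 compared were higher in Kmt2d+/βgeo (0.674% of all genes) and 1 lower (0.871%). On day 2, 2 of 61 were higher (1.68%) and 2 lower (1.15%), and on day 4 there was no member either way (0% of all genes). On day 8, 8 of 61 were higher (2.06%) and 4 lower (2.81%). The median day 8 log2 ratio was 0.18 for members and 0.01 for all genes. After each cell was thinned to 3000 UMIs the counts were 1 higher and 3 lower on day 0, 2 and 5 on day 2, and 4 and 6 on day 8. At a minimum mean of 0.5 the day 8 counts were 4 and 1 of 23. Thinning left out 765 of the 2965 cells of the day 8 Kmt2d+/βgeo library and 4 of the 3212 wild-type cells. Which direction held more members thus changed with thinning on days 0 and 8, and the 2 directions were no longer equal on day 2. The same counts over all genes were not made under thinning or at a minimum of 0.5. Whether these changes are particular to the members was therefore not tested. The day 8 Kmt2d+/βgeo library was also the shallowest, with less Apoe and more Hopx than the wild-type one, and the part of depth and of these markers in the ratios was not tested.

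The 8 genes higher on day 8 were adhesion proteins of several classes (Chl1, Igsf11, Igsf9b, Ncam2, Cdh10 and Pcdh17), the semaphorin Sema6a and the Slit receptor Robo1. Robo1 was at 0.167, 0.253, 0.120 and 0.197 in Kmt2d+/βgeo and at 0.101, 0.202, 0.109 and 0.0622 in wild type, which put the libraries apart by a log2 ratio of 1.66 on day 8. Ncam2, a relative of Ncam1 on olfactory and hippocampal axons, was at 0.383, 0.416, 0.213 and 0.566 and at 0.303, 0.258, 0.189 and 0.239. Cdh10 was at 0.110, 0.150, 0.158 and 0.441 and at 0.0632, 0.137, 0.163 and 0.194. Robo1, Ncam2 and Cdh10 each had their widest gap on day 8. The ratios of Sema6a (1.36), Chl1 (1.01) and Igsf9b (1.10) were of the same sign, and that of Igsf11 (1.02) was 0.77 (0.70 to 0.84, counting error only) when UMIs were pooled over cells rather than averaged after scaling. The other 7 were past 2-fold on the pooled scale as well. After thinning to 3000 UMIs, Robo1, Pcdh17, Sema6a and Ncam2 were still past 2-fold, whereas Cdh10 (0.97), Igsf9b (0.95), Igsf11 (0.53) and Chl1 were not.

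**Figure D5:**
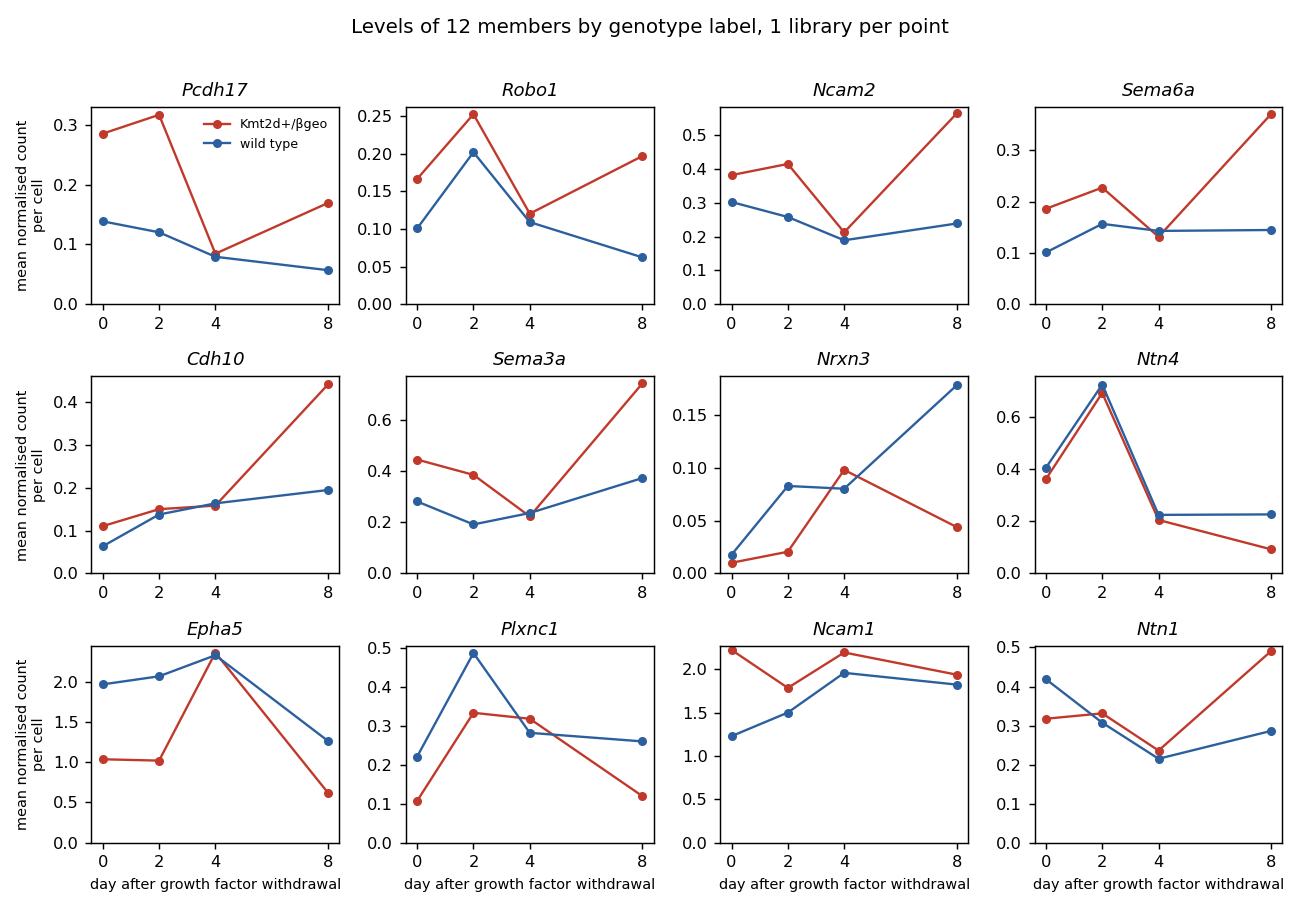
Mean normalised count per cell of 12 members by day after growth factor withdrawal, with 1 point per library, Kmt2d+/βgeo in red and wild type in blue. Pcdh17 is higher under the Kmt2d+/βgeo label on days 0, 2 and 8, Epha5 is lower on those days, and the lines meet on day 4.

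Pcdh17, a protocadherin of axon tracts and synapses, was the only one of 50 members compared on days 0, 2 and 8 to be past 2-fold with 1 sign on all 3 days. Of 6635 genes compared, 0.256% were higher on all 3 days and 0.181% lower. The gene lies on chromosome 14 at 84443563 to 84539002 (GRCm38). Its level was 0.285, 0.317, 0.0844 and 0.169 on days 0, 2, 4 and 8 in Kmt2d+/βgeo and 0.139, 0.120, 0.0792 and 0.0568 in wild type. The Kmt2d+/βgeo library was thus higher by log2 ratios of 1.04, 1.40 and 1.58 on days 0, 2 and 8, and by 0.09 on day 4. It rested on 1579 UMIs (1502.1 to 1658.8) against 810 (755.2 to 867.8) on day 0, and on 221 (192.8 to 252.1) against 155 (131.6 to 181.4) on day 8.

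Lower in Kmt2d+/βgeo on day 8 were Nrxn3, Ntn4, Plxnc1 and Epha5. Nrxn3, a neurexin, was at 0.0101, 0.0206, 0.0983 and 0.0440 in Kmt2d+/βgeo and at 0.0177, 0.0830, 0.0804 and 0.179 in wild type. The day 8 ratio of -2.02 rested on 57 UMIs (43.2 to 73.9) against 483 (440.9 to 528.1). Epha5, an ephrin-A receptor, was at 1.04, 1.02, 2.36 and 0.619 and at 1.97, 2.07, 2.33 and 1.26, lower by nearly 2-fold on day 0 and by at least 2-fold on days 2 and 8. Plxnc1, a plexin that binds semaphorin 7A, was at 0.107, 0.334, 0.318 and 0.120 and at 0.221, 0.487, 0.282 and 0.260, past 2-fold on days 0 and 8. On days 0 and 2 the remaining differences were in Cntn1 (1.19 on day 0), Sema3a (1.01 on day 2) and Ntm (-1.08 on day 2). Thinning to 3000 UMIs put Cntn1 on day 0 just inside 2-fold (0.998). Sema3a, a repellent cue for axons, was at 0.446, 0.386, 0.223 and 0.745 and at 0.282, 0.192, 0.237 and 0.374, so that the wild-type library was lower on days 0, 2 and 8.

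At day 0, cells with at least 3 UMIs of Top2a, a topoisomerase made in S and G2 phase, were compared with cells with 0 in the same library. Of 53 members compared in Kmt2d+/βgeo and 52 in wild type, 0 were past 2-fold upward (3.37% and 3.4% of all genes) and 0 downward (0.7% and 0.711%), and such all-gene shares amount to few genes in a list of this length. Tenm3 had the highest ratios, at 0.91 and 0.87, and Cadm4 was at -0.82 and -0.75. Ephb1 was just inside 2-fold at -0.97 in Kmt2d+/βgeo. After each cell was thinned to 3000 UMIs, 1 member was lower in the Top2a-rich cells of Kmt2d+/βgeo, Cntn1 at -1.06. All genes were not counted after this thinning. The Top2a-rich cells were deeper, with median totals of 31182 and 30615 UMIs against 20379.5 and 18197, and the part of depth was not tested.

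A separate list held 52 genes that act beside the members, such as adaptors of guidance receptors, catenins and collapsin response proteins. On day 8 in Kmt2d+/βgeo, 17 of 47 compared were higher than on day 0 (36.2%, against 19% of all genes) and 3 lower (6.38% against 13.9%). In wild type 9 of 45 were higher (20%, against 16.3% of all genes) and 5 lower (11.1% against 10.9%), so the wild-type shares were near those of all genes. Rgma, a repellent bound by neogenin, was at 0.284 on day 0 and 1.82 on day 8 in Kmt2d+/βgeo and at 0.240 and 1.14 in wild type. Draxin, which binds netrin 1 and Dcc, was at 0.145, 0.501, 1.29 and 0.769 on days 0, 2, 4 and 8 in Kmt2d+/βgeo and at 0.238, 0.626, 1.25 and 0.433 in wild type. It was thus highest on day 4 and past 2-fold on days 2 and 4 under both labels, and on day 8 in Kmt2d+/βgeo (2.41, against 0.86 in wild type). Dpysl5, of the collapsin response family, was at 0.123 and 0.503 and at 0.0679 and 0.451, and so was past 2-fold in both. Adgrl2, a latrophilin that binds teneurins, was lower in both (0.508 and 0.0976, and 0.694 and 0.240), as were the kinase Fyn (2.58 and 0.932, and 3.10 and 0.798) and Ank3, an ankyrin that anchors L1-family proteins (0.297 and 0.0824, and 0.338 and 0.118).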

How the data were processed

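The 8 libraries were made with the 10x Chromium 3' v3 kit. By the study's account the authors ran Alevin (Salmon 1.3.0) on GRCm38, kept spliced molecules, and removed cells with few genes and outliers in depth, mitochondrial share or doublet score, so no doublet caller was run here. The authors then scaled each cell by library size, and the deposited matrix holds log2 values of 9140 genes and 30408 cells. The authors' total UMIs per cell were deposited as an estimated count. Log2 values were turned back to normalised counts and averaged per library. UMIs were recovered from the worth of 1 UMI in each cell, and 86.8% of the values above 0 came out whole, to within 0.01. Ratios, a minimum mean of 0.1 and an absolute log2 ratio of 1 were applied as stated in the results. No test was run, since each group has 1 library, and the intervals cover counting error only. Gene coordinates came from the deposited gene table, and all 78 members were found in GENCODE M21, 77 with the same coordinates. The symbol rule also took Unc50, which is not a netrin receptor and was left out of the family sums. It was kept among the 78 members, in their summed level and in the counts over all members. The values of 1 member are not reported here.

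The members and lists were chosen with earlier results of these data known. Named members were taken from a list of 27 (22 of them members, the other 5 not analysed here), the 2 most abundant of each family, the largest ratios past 2-fold between genotypes on each day and on day 8 over day 0, and those with 1 sign on 3 days. Cadm2, Cadm4, Cdh13, Chl1, Ephb1, Negr1 and Unc5c were named after their values were seen. Calculations used Python 3.11.15, numpy 2.4.6, scipy 1.17.1 and pandas 2.3.3, and were tested on simulated data. Alternatives were a difference of mean log2 values, a minimum mean of 0.5, thinning of each cell to 3000 UMIs (cells below that were left out, 765 of 2965 in the day 8 Kmt2d+/βgeo library and 4 of 3212 in the wild-type one), leaving out the 5% of cells with most UMIs and, added after the data were seen, the gamma protocadherins as 1 feature and the later days and day of the highest level without day 4.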

Additional observations from a re-analysis of the deposited data

Results flagged for a closer look

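Of the 62 members compared under both labels, 10 (16.1%) stood above their day 0 level on day 8 under one genotype label and below it under the other, against 15.7% of all genes, so such members were about as frequent as among all genes. Those named by the rule whose counting intervals left out 0 under both labels were 5. For Lsamp the log2 ratio of day 8 over day 0 was -0.20 in Kmt2d+/βgeo and 0.54 in wild type, and for Ncam1 it was -0.20 and 0.57. The other 3 went the opposite way. Ncam2 had ratios of 0.56 and -0.34, Ntn1 of 0.63 and -0.55, and Robo1 of 0.24 and -0.70. Outside the naming rule, Chl1 (0.63 and -0.11) and Cdh13 (0.40 and -0.44) also had intervals without 0 under both labels. None of these ratios was past 2-fold, each rests on 1 library per day, and the difference between the labels was not tested. They drew attention only because their signs were opposite. For Ncam1 the labels were apart on day 0 (2.22 and 1.23) and near each other on day 8 (1.94 and 1.82), whereas for Robo1 and Ncam2 the gap was wider on day 8.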

How the results depend on the processing

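Within a day no paired analysis was possible, because each genotype and day has 1 library. No pair of groups shares more than 1 replicate number, and no replicate could be left out. A fit of genotype with day as a block takes change in the genotype difference between days as error. It could have been made across the days, but was not run. Of 124 values of named members past 2-fold, all 124 kept their direction under each alternative that recomputes the ratio. The number still past 2-fold was 10 as a difference of mean log2 values, 115 after thinning to 3000 UMIs and 120 without the 5% of cells with most UMIs. A minimum mean of 0.5 leaves each ratio as it is. The 67 values it kept were therefore past 2-fold by construction, and are no check. With mean log2 values, 0 members passed between genotypes on days 0, 2 and 8 in either direction, 0 were lower on any later day, 0 were higher on day 2 in Kmt2d+/βgeo, 2 were higher in each of the other 5 comparisons of a later day with day 0, and 0 on every later day in both genotypes. On that scale a difference of 1 is out of reach for a gene whose mean is below 1 in both libraries, so that only 7, 9 and 17 of the members compared between genotypes on days 0, 2 and 8, and 10 to 18 of those compared with day 0, could have passed, and its low counts say little about stability. At a minimum of 0.5 the genotype counts were 0 higher and 0 lower on day 0 (of 16 compared), 0 higher and 2 lower on day 2 (of 24), and 4 higher and 1 lower on day 8 (of 23). There the later days gave 9, 14 and 13 higher and 1, 1 and 1 lower on days 2, 4 and 8 in Kmt2d+/βgeo (of 22, 25 and 25). In wild type they gave 9, 11 and 13 higher and 2, 4 and 3 lower (of 25, 27 and 25). Under both labels, 4 members were higher on every later day. After thinning, 1 member was higher and 3 lower on day 0 between genotypes, 5 were lower on day 2 and 4 higher on day 8 (Robo1, Pcdh17, Sema6a and Ncam2), 10 were lower on day 8 over day 0 in Kmt2d+/βgeo, and 1 was lower in Top2a-rich cells of that genotype. Thinning first rounds fractional estimates to whole UMIs and leaves out shallower cells, 765 of 2965 in the day 8 Kmt2d+/βgeo library against 4 of 3212 in wild type. Without the cells with most UMIs, 1 member was higher on day 2 between genotypes and 5 were lower on day 4 over day 0 in Kmt2d+/βgeo. Without day 4, 2 members were lower on every later day in both genotypes. Counts over all genes were not made under these alternatives, except without day 4. Other causes were not tested. Depth limits several members, among them Nrxn3, Opcml, Sema3e, Sema5a and Nrp1, which had as few as 55, 47, 43, 49 and 73 UMIs in a library.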
